A study of Mus musculus with 16 samples.

Results

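The diet-by-drug interaction asks whether ertugliflozin changed left ventricular gene expression differently on 2 diets. It is the drug effect on a high fat, high sucrose diet (HFHS) minus the drug effect on a low-fat control diet (CD), each taken as drug minus no drug on the log2 scale. A negative value means that the gene was moved lower by the drug on HFHS than on CD. All 16 of the study's 16 libraries enter this contrast, 4 in each of 4 groups. The groups were HFHS with ertugliflozin, HFHS untreated, CD with ertugliflozin and CD untreated. All animals were male C57BL/6J mice with no engineered allele. They began their diet at 8 weeks of age and kept it for 4 months, with ertugliflozin mixed into the food at 0.5 mg per g in the treated groups. The 4 ventricles sequenced per group were picked by the submitters from 12 and called representative, without a stated rule, so the spread between libraries is that between the picked animals. Whole ventricular tissue was frozen and its poly(A) RNA was sequenced. In such bulk tissue, fewer cells of a type and less RNA per cell cannot be told apart.

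Ertugliflozin inhibits SGLT2 (encoded by Slc5a2), the transporter with which the kidney takes glucose back from the filtrate. Its cardiac actions are debated, with fuel use, sodium handling and inflammation among those discussed. The genes that led the interaction belong to another system, the response of cells to interferons. Interferon-gamma acts through its receptor and the kinases Jak1 and Jak2 on promoter sites with the core TTCNNNGAA. Type I interferons act through a complex that includes Stat2 and Irf9 and binds repeats of GAAA. Both induce immunity-related GTPases and guanylate-binding proteins, which attack the vacuoles of intracellular microbes, and the machinery that loads peptides onto class I molecules.

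Libraries held 16554399 to 21452212 counts in HFHS ertugliflozin, 14637669 to 18745934 in HFHS untreated, 18278761 to 20293743 in CD ertugliflozin and 15897779 to 18701291 in CD untreated. Slc5a2 was at 0 to 3 counts in every library. Ventricular cardiomyocyte markers were present throughout, and the mean log2 level of the 12 of them ranged over the libraries from -0.16 to 0.09 around its overall mean. Some libraries stood apart in markers of neighbouring tissue. The mean log2 level of 12 valve and cartilage-like markers, centred over the libraries, was highest in CD untreated replicates 2 and 3, at 2.36 and 2.16, against -1.56 to 0.91 in the other 14. For 12 atrial cardiomyocyte markers CD untreated replicate 1 was highest, at 2.6. Because these libraries are in the baseline of the CD drug effect, the results below are also given without CD untreated replicates 2 and 3, and with both marker scores in the fit.

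Few genes met the threshold for an interaction, and those that did were interferon-inducible GTPases on which the drug effect was lower on HFHS than on CD. Of 15841 genes tested with edgeR's quasi-likelihood test, 3 had a Benjamini-Hochberg adjusted p under 0.05, which is 0.0189% of those tested. All 3, Iigp1, Tgtp2 and Igtp, were lower. They had higher means with the drug than without it on CD and lower means with the drug than without it on HFHS. An unadjusted p under 0.05 was reached by 676 genes, or 4.27%, of which 371 were lower (2.34%) and 305 higher (1.93%). The median interaction of all genes was 0.00 and the median half-width of the 95% interval was 0.30 on the log2 scale. Of all genes tested, 46.5% had drug effects of opposite sign on the 2 diets. Across genes, which are not independent replicates, the 2 drug effects had a Pearson correlation of -0.075 and a Spearman correlation of 0.046. The 2 effects share no library.

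The promoters of 3 immunity-related GTPases and of Gbp5, a guanylate-binding protein, are shown because they hold sequence elements through which interferons are known to act. They were picked for display as leading genes with both motifs, and Tap1, of smaller p than Irgm2 and Gbp5, has neither. Windows of 250 bases before to 50 bases after the annotated start were taken from RefSeq (GRCm38.p6). Capitals mark 2 motifs. The first is a GAAA repeat, written as GAAA, any 2 bases and GAAA again, searched on both strands and so also seen as its reverse complement. The second is TTCNNNGAA, which reads the same on both strands. The windows are those of Tgtp2 (chr11:49064163-49064462, minus strand), Igtp (chr11:58199306-58199605, plus strand), Irgm2 (chr11:58214727-58215026, plus strand) and Gbp5 (chr3:142496684-142496983, plus strand).
Tgtp2: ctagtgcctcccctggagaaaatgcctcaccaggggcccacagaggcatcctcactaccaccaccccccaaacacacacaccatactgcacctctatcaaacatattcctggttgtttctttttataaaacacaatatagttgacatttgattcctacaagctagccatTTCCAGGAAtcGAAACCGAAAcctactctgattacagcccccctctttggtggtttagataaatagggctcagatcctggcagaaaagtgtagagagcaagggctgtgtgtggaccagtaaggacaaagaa
Igtp: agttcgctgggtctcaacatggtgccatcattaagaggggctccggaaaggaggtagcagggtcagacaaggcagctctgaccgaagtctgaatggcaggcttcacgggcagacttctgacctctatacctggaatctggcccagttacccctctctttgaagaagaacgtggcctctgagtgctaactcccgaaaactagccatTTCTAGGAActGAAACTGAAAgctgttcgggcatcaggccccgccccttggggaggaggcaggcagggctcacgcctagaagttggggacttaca
Irgm2: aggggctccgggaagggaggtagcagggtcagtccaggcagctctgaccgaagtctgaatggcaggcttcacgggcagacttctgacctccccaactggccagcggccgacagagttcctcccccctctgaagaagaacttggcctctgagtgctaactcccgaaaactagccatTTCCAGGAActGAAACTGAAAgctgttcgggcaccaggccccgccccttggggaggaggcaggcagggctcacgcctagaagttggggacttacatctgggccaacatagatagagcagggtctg
Gbp5: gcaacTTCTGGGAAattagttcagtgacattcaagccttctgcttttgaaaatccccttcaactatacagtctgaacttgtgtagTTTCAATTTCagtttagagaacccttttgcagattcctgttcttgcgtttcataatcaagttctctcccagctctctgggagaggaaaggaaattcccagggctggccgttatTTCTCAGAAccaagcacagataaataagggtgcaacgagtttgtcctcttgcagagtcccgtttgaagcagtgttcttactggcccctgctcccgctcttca
In each of the 3 GTPase windows a TTCNNNGAA lay just before a GAAA repeat. The repeat began 70 bases before the start in Tgtp2, 34 in Igtp and 64 in Irgm2, and the TTCNNNGAA began 81, 45 and 75 bases before it in the same genes. In Gbp5 the GAAA repeat was on the opposite strand, 165 bases before the start, between the 2 TTCNNNGAA matches at 245 and 52 bases. The GAAA repeat was found in all 6 windows of the immunity-related GTPases that matched a RefSeq entry, out of 8 genes tested, and TTCNNNGAA in 5 of these 6. It was found in 4 of 5 windows of guanylate-binding proteins, 5 of 18 of class I genes and 13 of 22 of type I interferon-stimulated genes. TTCNNNGAA was found in 2 of 5, 1 of 18 and 5 of 22 windows of the same lists, and its share in class I windows, 5.56%, was below that of all windows. Of all 32851 windows in the table, 3.44% held the GAAA repeat and 8.30% held TTCNNNGAA. Of the Tap1 window, 275 bases are shared with the window of Psmb9 on the opposite strand.

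The immunity-related GTPases had lower interaction values in all 8 members tested, with a median of -1.14, against 0.00 over all genes tested. Iigp1 (ENSMUSG00000054072), also called Irga6, loads onto the membrane of pathogen vacuoles and oligomerises there. It had 35.9, 36.1, 30.1 and 29.2 CPM (counts scaled to library size with TMM factors) in HFHS ertugliflozin libraries and 51.4, 40.8, 36.6 and 47.1 CPM in HFHS untreated libraries. On CD it had 89.8, 109, 90.2 and 73.2 CPM with ertugliflozin, against 53.4, 45.6, 53.7 and 45.6 CPM untreated. The 4 CD ertugliflozin libraries were above, and the 4 HFHS ertugliflozin libraries below, all other libraries. Over all genes tested, the treated libraries were all above the untreated ones on CD in 1.78% and all below them on HFHS in 1.54%. The drug effect was -0.42 ± 0.13 (SE, log2) on HFHS and 0.87 ± 0.12 on CD. The interaction was -1.29 ± 0.17, with a 95% interval of -1.66 to -0.92 and an adjusted p of 0.0219 by edgeR. The fold change on HFHS was thus 0.409 times that on CD. Read along the other axis of the same contrast, the diet effect (HFHS minus CD) on Iigp1 was -1.46 with the drug and -0.17 without it.

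Tgtp2 (ENSMUSG00000078921; chromosome 11, 49057194 to 49064206), a GTPase first found in T cells and induced in many cells by interferon, had 5.63, 5.57, 4.28 and 5.05 CPM in HFHS ertugliflozin and 8.24, 7.79, 4.91 and 6.30 CPM in HFHS untreated libraries. With the drug on CD it reached 15.2, 18.2, 13.1 and 13.8 CPM, against 6.66, 8.40, 8.95 and 6.70 CPM in CD untreated libraries. The CD groups did not overlap, whereas HFHS untreated replicate 3 fell within the range of the HFHS ertugliflozin libraries. Its interaction was -1.38 ± 0.22 (SE, log2), adjusted p = 0.0219 by edgeR, from drug effects of -0.41 on HFHS and 0.97 on CD. Igtp (ENSMUSG00000078853; chromosome 11, 58199556 to 58207591), also called Irgm3, is one of the regulators that keep the vacuole-attacking GTPases off the cell's own membranes. It had 14.4, 12.3, 14.5 and 12.2 CPM in HFHS ertugliflozin and 16.4, 20.4, 14 and 18.2 CPM in HFHS untreated libraries. In CD ertugliflozin libraries it had 27.1, 34.3, 38.5 and 29.98 CPM, against 20.4, 16.5, 21.4 and 18.6 CPM in CD untreated libraries. Here too the CD groups were apart and HFHS untreated replicate 3 fell among the treated HFHS libraries. The interaction of Igtp was -1.13 ± 0.17 (SE, log2), adjusted p = 0.0219 by edgeR, from -0.37 on HFHS and 0.76 on CD.

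**Figure D1:**
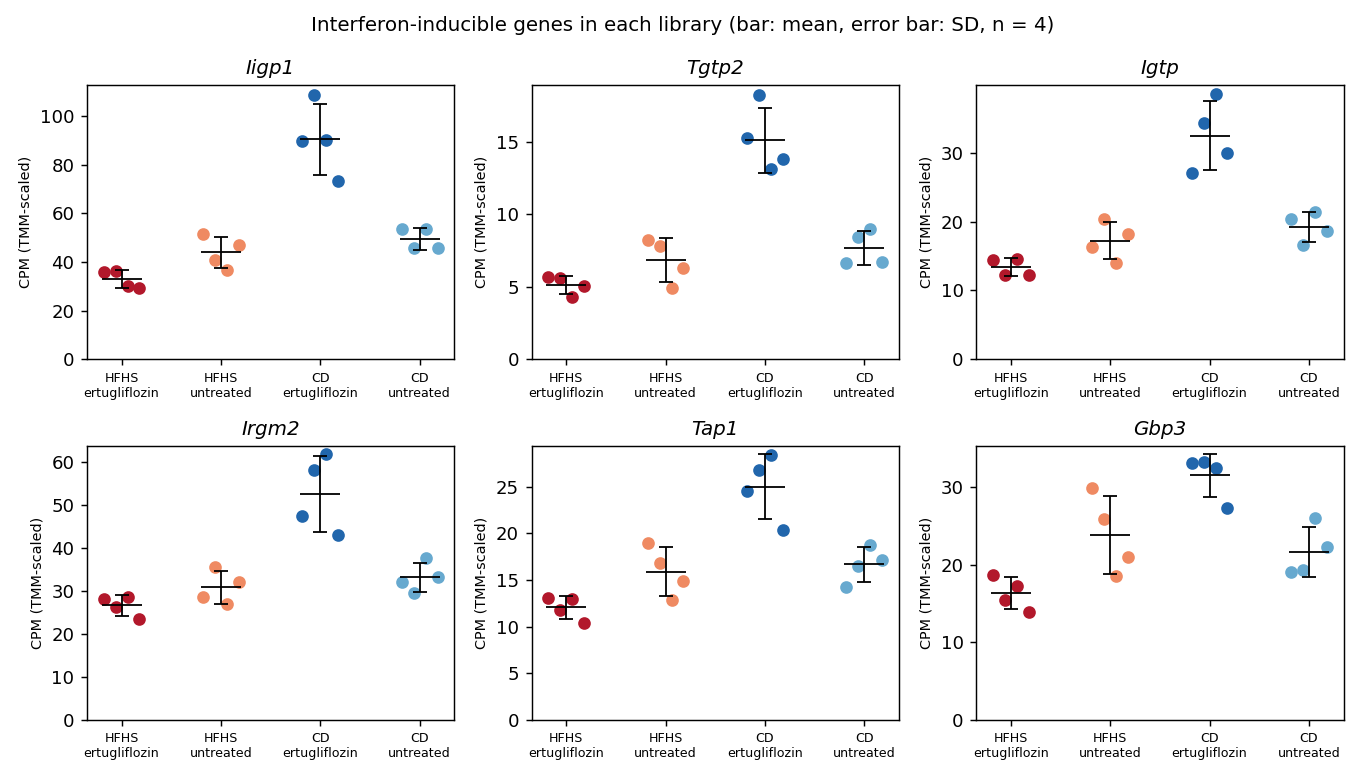
CPM of leading interferon-inducible genes in each library, with 1 point per library, bars at the group mean and error bars of 1 SD (n = 4). In Iigp1, Tgtp2 and Igtp the 4 CD ertugliflozin libraries lie above the other 12, and the HFHS ertugliflozin group has the lowest mean.

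The drug effect on CD, which is one arm of the interaction, passed the same test in 3 of 15841 genes (0.0189%), and these were again Iigp1, Tgtp2 and Igtp. An unadjusted p under 0.05 for the drug on CD was reached by 978 genes (6.17%). The fold changes of the 3 on CD were 1.83, 1.96 and 1.69. The drug effect on HFHS passed in 0 genes (0%), with 637 (4.02%) at an unadjusted p under 0.05, and 0 also passed with DESeq2. On HFHS the fold changes of these 3 genes were 0.747, 0.753 and 0.774. All 4 CD ertugliflozin libraries were above the other 12 in 4 of the 8 GTPases, against 0.341% of all genes tested. In 1 of the 8, Iigp1, all 4 HFHS ertugliflozin libraries were below the other 12, against 0.133% of all genes.

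The other GTPases of the family did not pass the test and had values of the same sign. Irgm2, a regulator encoded beside Igtp, had an interaction of -0.88 ± 0.16 (SE, log2; edgeR adjusted p = 0.122). It averaged 26.6 ± 2.35 CPM in HFHS ertugliflozin, 30.8 ± 3.79 in HFHS untreated, 52.6 ± 8.86 in CD ertugliflozin and 33.1 ± 3.36 in CD untreated libraries (SD, n = 4 each). In GENCODE the spans of Irgm2 and Igtp overlap by 7974 bases on the same strand. Reads in the shared stretch may thus be counted for either or neither. This overlap is of whole gene spans, not of exons, and the RefSeq start of Irgm2 shown above lies past the end of Igtp. Irgm1, the third such regulator, had the smallest value of the family, -0.53 ± 0.13, with 23.9 ± 2.69, 28.7 ± 2.89, 37.3 ± 3.62 and 31.1 ± 3.22 CPM in the same order of groups. Tgtp1 is a near-identical copy of Tgtp2, and reads common to both cannot be assigned with certainty. It had -1.50 ± 0.34 and averaged 2.00, 3.06, 6.35 and 3.43 CPM. All 8 members had a negative value with an unadjusted p under 0.05 (edgeR), against 2.34% of all genes tested. In all 8 the lowest group mean was in HFHS ertugliflozin and the highest in CD ertugliflozin, against 24.8% and 28.5% of all genes.

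Guanylate-binding proteins are larger interferon-induced GTPases that assemble on microbial membranes. All 9 tested had an interaction below 0, with a median of -0.66. By edgeR 6 had a negative value with an unadjusted p under 0.05, against 2.34% of all genes, and 0 passed the adjusted threshold. Gbp3 had 18.7, 15.5, 17.3 and 13.9 CPM in HFHS ertugliflozin libraries, 29.9, 25.9, 18.6 and 20.9 in HFHS untreated, 33.1, 33.2, 32.4 and 27.3 in CD ertugliflozin and 19.0, 19.4, 25.97 and 22.2 in CD untreated libraries. Its 2 drug effects were of equal size and opposite sign, -0.54 on HFHS and 0.54 on CD, and its interaction was -1.08 ± 0.19 (SE, log2; edgeR adjusted p = 0.120). Gbp5, which also promotes inflammasome assembly, had 13.3, 12.9, 13.2 and 10.6 CPM in HFHS ertugliflozin and 17.3, 14.3, 13.1 and 15.8 CPM in HFHS untreated libraries. It had 22.2, 21.9, 18.9 and 21.4 CPM in CD ertugliflozin and 15.7, 16.1, 17.2 and 15.7 CPM in CD untreated libraries. The CD ertugliflozin libraries of Gbp5 were above all other libraries, and the interaction was -0.66 ± 0.13 (edgeR adjusted p = 0.129).

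Gbp4 averaged 20.5 ± 1.2 CPM in HFHS ertugliflozin, 24.9 ± 7.29 in HFHS untreated, 47.2 ± 2.88 in CD ertugliflozin and 29.0 ± 2.94 in CD untreated libraries (SD, n = 4 each). Its interaction was -0.98 ± 0.21 and that of Gbp7 was -0.86 ± 0.18 (SE, log2), with edgeR adjusted p-values of 0.295 and 0.270. The span of Gbp4 overlaps those of Gbp8 and Gbp9 on the same strand, so these counts are uncertain. Gvin1, a very large interferon-inducible GTPase with close copies in the genome, averaged 2.25 ± 0.33, 3.32 ± 0.81, 4.60 ± 0.63 and 2.79 ± 0.42 CPM in HFHS ertugliflozin, HFHS untreated, CD ertugliflozin and CD untreated libraries. Its interaction was -1.28 ± 0.25, edgeR adjusted p = 0.129.

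Of the class I presentation genes, 17 of 18 had an interaction below 0, with a median of -0.57. By edgeR 15 of them had a negative value with an unadjusted p under 0.05, against 2.34% of all genes, and 0 passed the adjusted threshold. Tap1, a subunit of the transporter that carries peptides into the endoplasmic reticulum, came nearest. It had 13.04, 11.8, 13.01 and 10.4 CPM in HFHS ertugliflozin and 19.0, 16.9, 12.8 and 14.9 CPM in HFHS untreated libraries. On CD it had 24.6, 26.8, 28.4 and 20.4 CPM with ertugliflozin, against 14.3, 16.5, 18.8 and 17.1 CPM untreated. The treated CD libraries of Tap1 were above the other 12, while the HFHS groups overlapped through untreated replicate 3. Its interaction was -0.98 ± 0.17 (SE, log2), with an edgeR adjusted p of 0.0809. Nlrc5, the transactivator of class I genes, had 6.38, 5.62, 5.30 and 5.17 CPM in HFHS ertugliflozin libraries and 6.79, 8.54, 4.70 and 7.08 CPM in HFHS untreated libraries. It had 17.1, 17.0, 19.0 and 10.7 CPM in CD ertugliflozin libraries and 8.69, 8.40, 9.94 and 9.10 CPM in CD untreated libraries. Its interaction of -1.09 ± 0.24 came mainly from the CD arm, where the drug effect was 0.82 against -0.28 on HFHS (edgeR adjusted p = 0.295 for the interaction).

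The non-classical class I genes H2-Q7, H2-Q6 and H2-Q4 had interactions of -1.21, -1.18 and -0.69 and edgeR adjusted p-values of 0.508, 0.671 and 0.681. H2-Q7 averaged 10.03 ± 1.16 CPM in HFHS ertugliflozin, 13.5 ± 4.43 in HFHS untreated, 28.6 ± 6.03 in CD ertugliflozin and 16.7 ± 1.78 in CD untreated libraries (SD, n = 4 each). These genes are close copies, so the split of reads among them is uncertain. In 8 of the 18 class I genes all 4 CD ertugliflozin libraries were above the other 12, the count for all genes tested being 0.341%.

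Class II presentation genes, which are carried mostly by antigen-presenting cells, had interactions below 0 in 7 of 7, with a median of -0.67, but wide intervals. H2-DMa was the single one with an unadjusted p under 0.05. The transactivator Ciita had -0.67 ± 0.40 and the invariant chain Cd74 -0.65 ± 0.40 (SE, log2). Cd74 averaged 80.1 ± 13.5 CPM in HFHS ertugliflozin, 93.0 ± 30.1 in HFHS untreated, 152 ± 58.1 in CD ertugliflozin and 113 ± 21.7 in CD untreated libraries (SD, n = 4 each).

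**Figure D2:**
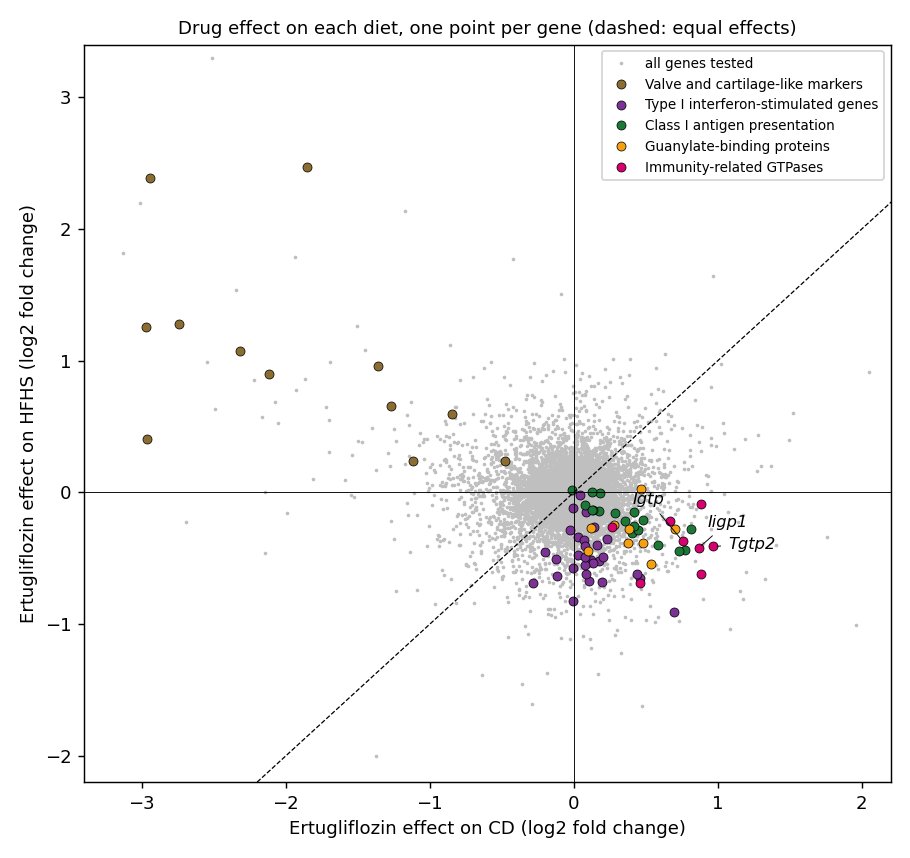
Drug effect on HFHS (vertical axis, log2 fold change) against drug effect on CD (horizontal axis, log2 fold change), 1 point per gene, with 6 genes outside the plotted range. Colours mark the immunity-related GTPases, guanylate-binding proteins, class I genes and type I interferon-stimulated genes, and also the valve and cartilage-like markers. The immunity-related GTPases lie in the lower right quadrant, with medians of -0.39 on HFHS and 0.81 on CD, while the type I interferon-stimulated genes lie below 0 on the vertical axis and around 0 on the horizontal axis, with medians of -0.51 and 0.08.

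Among the signalling genes and regulators induced by interferon-gamma, 17 of 19 had an interaction below 0, with a median of -0.42. By edgeR 7 had a negative value with an unadjusted p under 0.05, against 2.34% of all genes, and 0 passed the adjusted threshold. Cd274, which encodes the T cell checkpoint ligand PD-L1, had 11.6, 12.7, 11.6 and 10.6 CPM in HFHS ertugliflozin, 16.0, 14.8, 12.2 and 11.4 in HFHS untreated, 20.6, 17.2, 17.9 and 19.9 in CD ertugliflozin and 15.2, 12.5, 12.0 and 13.1 in CD untreated libraries. Its CD groups were apart and its HFHS groups overlapped, with an interaction of -0.75 ± 0.15 (edgeR adjusted p = 0.130). The factor Stat2 had 25.4, 22.1, 21.6 and 22.2 CPM in HFHS ertugliflozin, 28.6, 29.9, 23.9 and 26.4 in HFHS untreated, 32.8, 31.3, 33.2 and 30.6 in CD ertugliflozin and 22.7, 25.4, 29.6 and 27.1 in CD untreated libraries. All 4 treated CD libraries of Stat2 were above the other 12, with an interaction of -0.54 ± 0.12 (edgeR adjusted p = 0.270). Stat2 was counted in this list and not in the type I list, although it belongs to the type I complex named above.

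The interferon genes themselves were scarcely detected. Ifng was below the filter, with sums over 4 libraries of 1 count in HFHS ertugliflozin, 1 in HFHS untreated, 2 in CD ertugliflozin and 3 in CD untreated, so no difference was detectable at this depth. Ifnb1, Ifna4 and Ifnl2 had 0 counts in all libraries. T and NK cell transcripts, which come from the usual producers of interferon-gamma, were near this limit too, and 5 of 18 markers could be tested. Of these 5, 3 had an interaction above 0 and 2 below 0, with a median of 0.12. Their score averaged -0.11 ± 0.196 in HFHS ertugliflozin and -0.0957 ± 0.147 in HFHS untreated libraries (SD, n = 4 each). It averaged 0.0467 ± 0.225 in CD ertugliflozin and 0.159 ± 0.114 in CD untreated libraries. The defining T cell transcripts Cd3e and Cd3d were below the filter, with sums of 10 and 9 counts in HFHS ertugliflozin, 12 and 11 in HFHS untreated, 17 and 9 in CD ertugliflozin and 16 and 11 in CD untreated. Trac, which was tested, and Cd3g, which was below the filter, had their highest sums in CD untreated. In the same order of groups Trac had 43, 49, 44 and 62 counts, and Cd3g had 15, 11, 21 and 27. Some transcripts of NK and cytotoxic cells, also below the filter and so untested, had their highest sums in CD ertugliflozin. The NK receptor gene Ncr1 had 8 counts in HFHS ertugliflozin, 8 in HFHS untreated, 23 in CD ertugliflozin and 10 in CD untreated, and Klrb1c had 3, 7, 14 and 2 in the same order. The granzyme genes Gzma and Gzmb had 10 and 5, 16 and 6, 26 and 13, and 15 and 8. In Gzma 15 of the 26 counts, in Ncr1 10 of the 23 and in Klrb1c 7 of the 14 came from CD ertugliflozin replicate 3. Another such transcript, Nkg7, had its highest sum in HFHS ertugliflozin. It had 20 counts there, 13 in HFHS untreated, 19 in CD ertugliflozin and 10 in CD untreated. These transcripts were listed after their values were seen, and their part in the interferon-related values was not tested.

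Type I interferon-stimulated genes had a different balance of the 2 arms. All 29 had an interaction below 0, with a median of -0.57, and 19 had an unadjusted p under 0.05 by edgeR, against 2.34% of all genes with a negative value, with 0 past the adjusted threshold. The median drug effect was -0.51 on HFHS and 0.08 on CD, whereas that of the immunity-related GTPases was -0.39 on HFHS and 0.81 on CD. No test of the difference between these lists was made. HFHS ertugliflozin had the lowest group mean in 28 of the 29, against 24.8% of all genes, and CD ertugliflozin the highest in 13, against 28.5%. Zbp1, a sensor of left-handed nucleic acid that can start necroptosis, had 1.46, 0.956, 1.08 and 0.822 CPM in HFHS ertugliflozin, 2.37, 2.67, 0.702 and 2.36 in HFHS untreated, 2.66, 2.77, 3.65 and 2.48 in CD ertugliflozin and 1.21, 1.85, 1.93 and 2.06 in CD untreated libraries. HFHS untreated replicate 3 was the lowest of all libraries for Zbp1, apart from the rest of its group, and the interaction was -1.61 ± 0.41 (edgeR adjusted p = 0.508). Bst2, or tetherin, which holds budding viruses at the cell surface, averaged 15.9 ± 0.57 CPM in HFHS ertugliflozin, 22.9 ± 4.92 in HFHS untreated, 25.1 ± 2.97 in CD ertugliflozin and 22.2 ± 3.96 in CD untreated libraries (SD, n = 4 each). The RNA sensors Ifih1 and Ddx58 had interactions of -0.40 ± 0.12 and -0.37 ± 0.12.

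The mean log2 level of the 8 immunity-related GTPases in each library, centred over the 16, showed the groups as a whole. It was -0.46, -0.51, -0.41 and -0.68 in HFHS ertugliflozin and -0.07, 0.05, -0.50 and -0.11 in HFHS untreated libraries. It was 0.66, 0.88, 0.85 and 0.33 in CD ertugliflozin, against -0.02, -0.14, 0.13 and -0.01 in CD untreated libraries. Each CD ertugliflozin library was above each library of the other groups, and HFHS untreated replicate 3 lay at the level of the treated HFHS libraries. For the type I interferon-stimulated genes the values were -0.21, -0.30, -0.24 and -0.51 in HFHS ertugliflozin and 0.38, 0.31, -0.19 and 0.04 in HFHS untreated libraries. They were 0.24, 0.11, 0.26 and -0.02 in CD ertugliflozin and -0.26, 0.02, 0.28 and 0.08 in CD untreated libraries. Here the 2 CD groups overlapped, and the HFHS groups were apart by the narrow gap at untreated replicate 3.

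**Figure D3:**
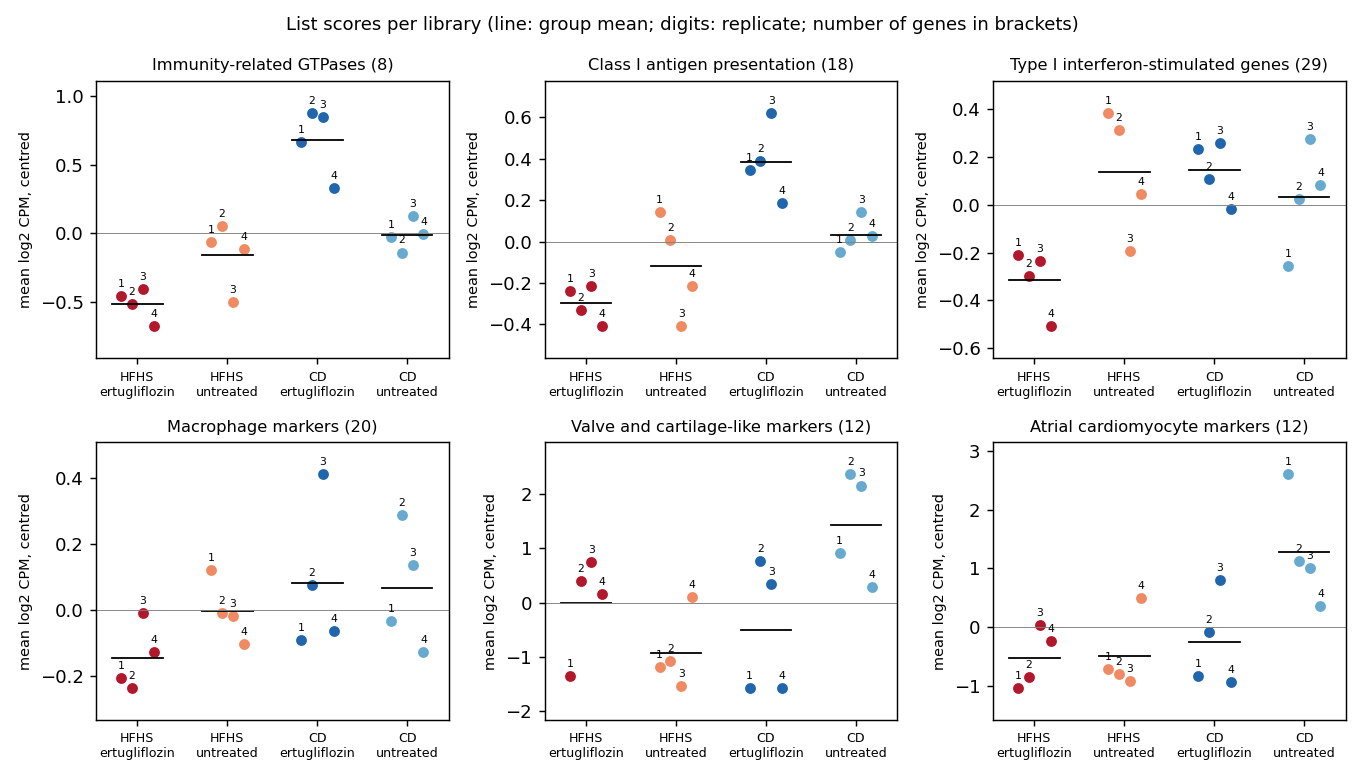
List scores in each library (vertical axis, mean log2 CPM of the members, centred over 16 libraries), with group means as lines and replicate numbers as marks. CD ertugliflozin is highest for the immunity-related GTPases at 0.33 to 0.88, and CD untreated replicates 2 and 3 are highest for the valve and cartilage-like markers at 2.36 and 2.16.

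Taken over the 6 interferon-related lists, 87 of 90 tested genes had an interaction below 0, where 51.2% of all genes tested did. The median was -0.57, and 56 of the 90 had an unadjusted p under 0.05 with a negative value, against 2.34% of all genes. These 90 genes made up 0.568% of the genes tested. They filled 12 of the 14 first places by p, 14 of the first 20, 23 of the first 50 and 30 of the first 100. The lists had been chosen with earlier results on these libraries known, so these counts are descriptions.

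Among the 30 named genes of smallest p, 26 had negative and 4 positive interactions, and 18 were in the interferon-related lists. All 30 had drug effects of opposite sign on the 2 diets, against 46.5% of all genes, but choice by interaction p favours such genes. The largest unadjusted p among them was 0.00163, and 27 did not pass the adjusted threshold. Outside the families above, Arhgap15, a Rac GTPase-activating protein of blood cells, averaged 1.24 ± 0.22 CPM in HFHS ertugliflozin, 2.13 ± 0.39 in HFHS untreated, 2.2 ± 0.18 in CD ertugliflozin and 1.74 ± 0.27 in CD untreated libraries. Its interaction was -1.13 ± 0.26, with the HFHS arm, at -0.79, the larger one. Vsir, which encodes the checkpoint protein VISTA, had an interaction of -0.42 ± 0.11 that came from the HFHS arm at -0.38, with 0.04 on CD. Ifi213, a member of the interferon-inducible family of nucleic acid sensors, had -0.84 ± 0.21, with -0.67 on HFHS and 0.17 on CD. Apol10b, of the apolipoprotein L family, had -1.17 ± 0.26, with -0.53 on HFHS and 0.64 on CD.

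Upp1, the uridine phosphorylase, averaged 3.28 ± 0.14 CPM in HFHS ertugliflozin, 4.93 ± 1.01 in HFHS untreated, 4.98 ± 0.86 in CD ertugliflozin and 3.90 ± 0.64 in CD untreated libraries, with an interaction of -0.94 ± 0.23. Wars, the tryptophanyl-tRNA synthetase and a known interferon-gamma target, had a small and evenly measured interaction of -0.27 ± 0.07. It averaged 56.8 ± 1.98, 63.5 ± 1.89, 63.5 ± 2.29 and 58.7 ± 3.03 CPM in the same order of groups. The developmental transcription cofactor Eya1 had the largest size among the 30, -1.91 ± 0.47, at 1.70, 2.86, 3.30 and 1.49 CPM, with CD ertugliflozin libraries spread from 1.39 to 4.65 CPM. The edgeR adjusted p-values of Arhgap15, Upp1, Wars and Eya1 were 0.326, 0.508, 0.508 and 0.508.

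The 4 positive genes had lower means with the drug than without it on CD. Zfp185, an actin-associated LIM protein gene on the X chromosome, had 1.46, 1.07, 1.32 and 1.29 CPM in HFHS ertugliflozin, 1.19, 0.800, 0.561 and 0.727 in HFHS untreated, 1.04, 1.35, 1.29 and 1.01 in CD ertugliflozin and 1.84, 2.13, 2.71 and 1.56 in CD untreated libraries. The CD groups did not overlap, and the interaction was 1.46 ± 0.33 (edgeR adjusted p = 0.326). Robo1, a receptor for Slit guidance cues, averaged 4.67 ± 0.68 CPM in HFHS ertugliflozin, 4.08 ± 0.13 in HFHS untreated, 2.61 ± 0.28 in CD ertugliflozin and 4.31 ± 1.03 in CD untreated libraries. Its interaction was 0.92 ± 0.23 and rested on the CD arm, at -0.72. Cpeb1, a regulator of mRNA polyadenylation, had 0.41 ± 0.10, and Vasn, a TGF-beta-binding membrane protein, had 0.56 ± 0.15. The span of Vasn overlaps that of the far more abundant Dnaja3 on the same strand, so its count is uncertain.

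**Figure D4:**
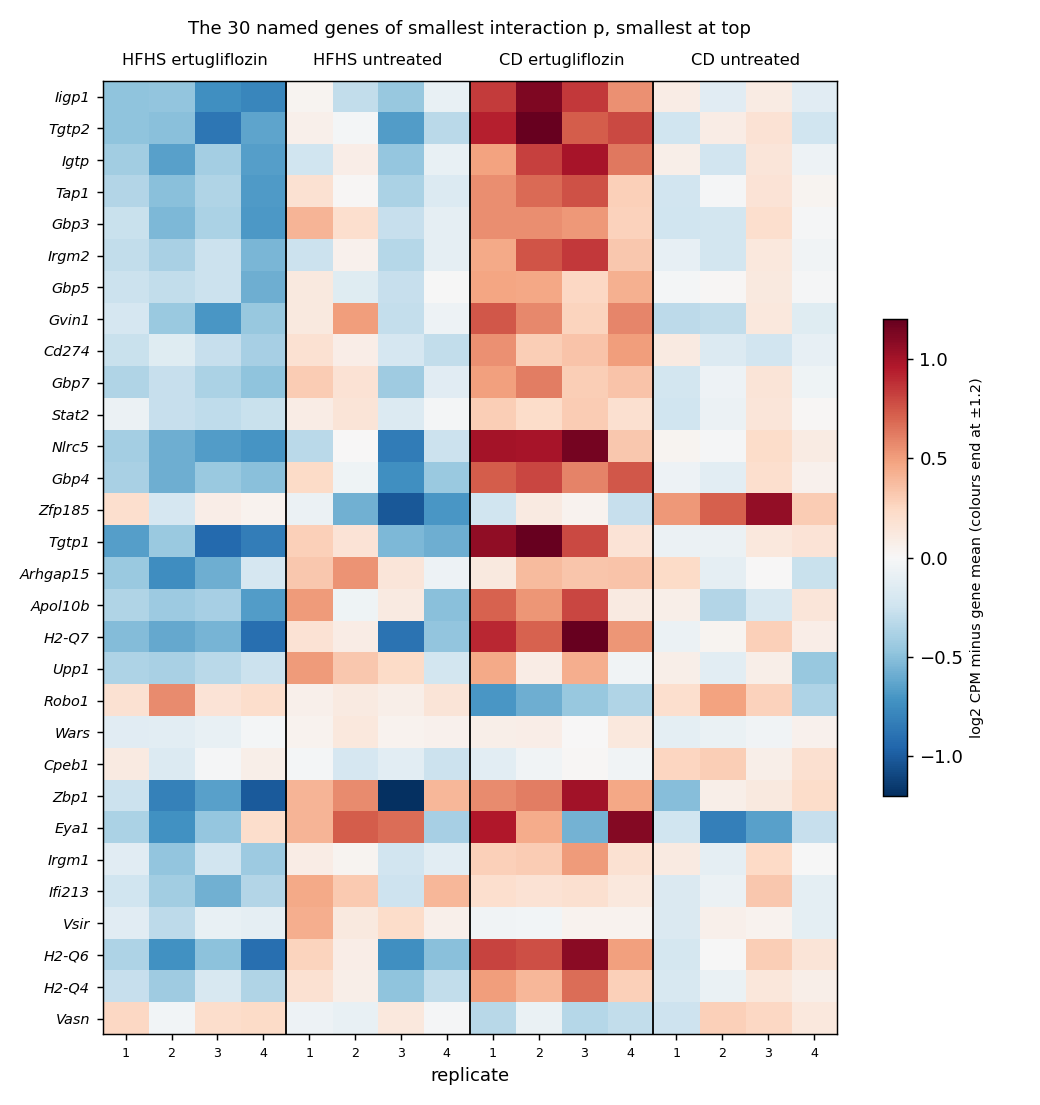
Log2 CPM minus the gene's mean (colour, ending at ±1.2) in each of the 16 libraries for the 30 named genes of smallest interaction p, smallest at the top. In 24 of the 30 genes the CD ertugliflozin group had the highest mean, and 26 have a negative interaction.

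Lists of mitochondrial fuel use had median interactions near 0. Of 20 genes of mitochondrial fatty acid oxidation, 18 were above 0, against 48.8% of all genes tested. Their median was 0.06, and 0 had an unadjusted p under 0.05 by edgeR. Hadha, which encodes the alpha subunit of the trifunctional protein, averaged 2933 ± 124 CPM in HFHS ertugliflozin, 2639 ± 187 in HFHS untreated, 2229 ± 117 in CD ertugliflozin and 2185 ± 108 in CD untreated libraries (SD, n = 4 each). Its interaction was 0.12, with a 95% interval of -0.05 to 0.29. The fatty acid transporter Cd36 had -0.03, with an interval of -0.19 to 0.13, and Cpt1b, the muscle carnitine palmitoyltransferase, had 0.18, with -0.04 to 0.40. For 36 complex I subunits and 35 subunits of complexes III and IV and ATP synthase the medians were -0.02 and -0.01, and 0 of either had an unadjusted p under 0.05. Of these subunits 26 and 23 were below 0, against 51.2% of all genes. Enzymes of the TCA cycle (18 genes, 7 below 0, median 0.02) and of branched-chain amino acid catabolism (20 genes, 16 below 0, median -0.05) were also without an unadjusted p under 0.05.

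Ketone use and its regulators gave no call either. Oxct1, the enzyme that activates ketone bodies in the heart, averaged 1393 ± 58.1 CPM in HFHS ertugliflozin, 1458 ± 67.5 in HFHS untreated, 1909 ± 56.4 in CD ertugliflozin and 1860 ± 92.8 in CD untreated libraries. Its interaction was -0.10, with a 95% interval of -0.25 to 0.05. The ketone dehydrogenase Bdh1 had -0.37, with the wide interval of -1.25 to 0.51. Over the 7 genes of ketone metabolism the median was -0.01.

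Among 25 PPAR target genes the median interaction was 0.04, and 1 gene in each direction had an unadjusted p under 0.05, with 0 past the adjusted threshold (edgeR). Pdk4, which restrains glucose oxidation, had 1713, 2039, 1671 and 1758 CPM in HFHS ertugliflozin, 1000, 1864, 1141 and 1632 in HFHS untreated, 923, 1543, 945 and 743 in CD ertugliflozin and 426, 553, 470 and 646 in CD untreated libraries. The drug effect on Pdk4 was 0.35 on HFHS and 0.99 on CD, and the interaction of -0.64 had an interval of -1.37 to 0.09. Angptl4, an inhibitor of lipoprotein lipase, had -1.11, with an interval of -2.60 to 0.38, and its CD ertugliflozin libraries were spread from 3.89 to 30.9 CPM. Ehhadh, a peroxisomal oxidation enzyme, had -0.30, with -0.57 to -0.02 and an edgeR adjusted p of 1.00. The thioesterase Acot2 had 0.08, with -0.16 to 0.32.

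Chrna2, an acetylcholine receptor subunit, had higher means with the drug on both diets. It had 15.6, 13.9, 16.4 and 13.9 CPM in HFHS ertugliflozin, against 8.70, 10.1, 10.2 and 9.26 CPM in HFHS untreated libraries. On CD it had 3.29, 3.79, 3.48 and 6.32 CPM with ertugliflozin, against 2.79, 3.49, 3.02 and 2.68 CPM untreated. The groups were apart on HFHS and overlapped on CD, and the interaction was 0.15, with an interval of -0.33 to 0.62. Slc5a1, which encodes the glucose transporter SGLT1, was low at 0.81 CPM in HFHS ertugliflozin, 0.67 in HFHS untreated, 0.86 in CD ertugliflozin and 1.42 in CD untreated libraries, and its interaction of 0.96 had an interval of -0.09 to 2.01.

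**Figure D5:**
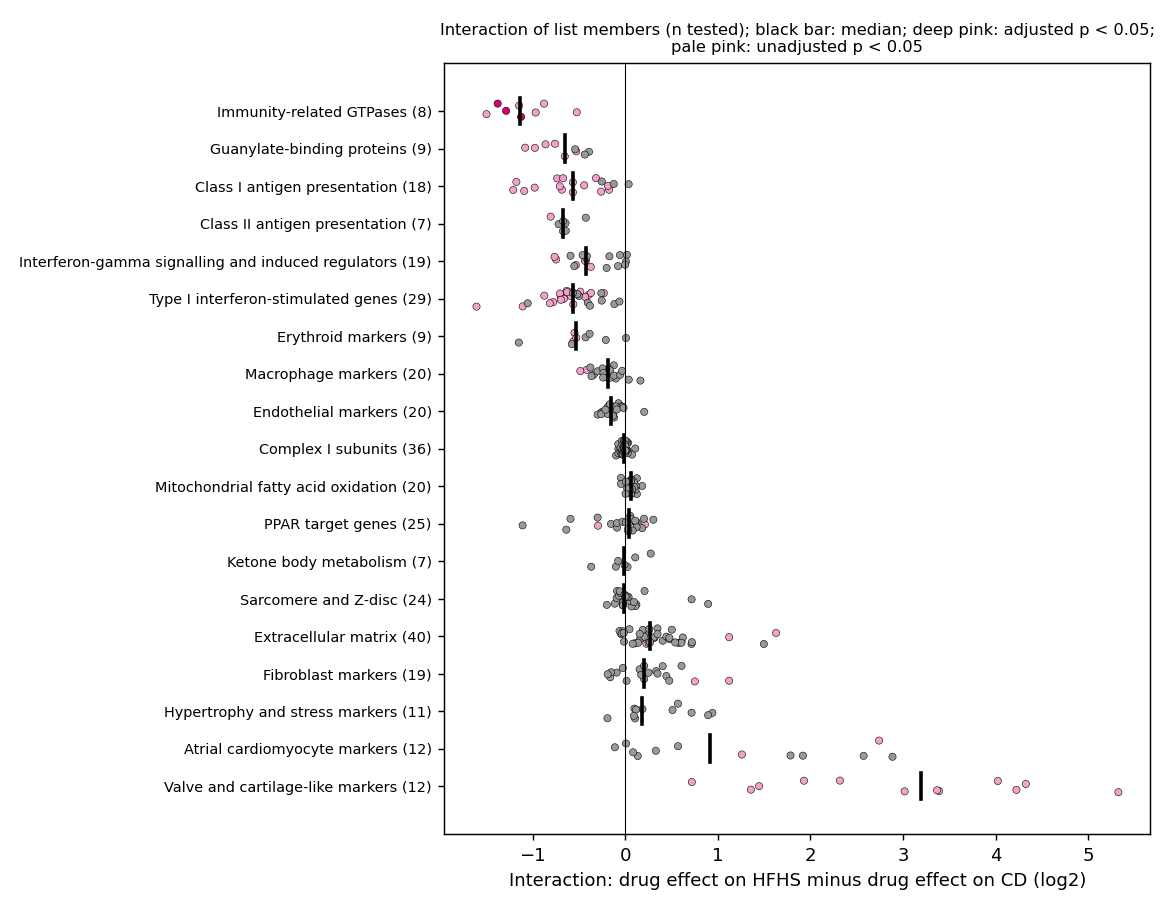
Interaction of each member of the lists (horizontal axis, log2, drug effect on HFHS minus drug effect on CD), with the number of members tested in brackets and the median as a black bar. The interferon-related lists lie below 0, with medians of -1.14 for immunity-related GTPases to -0.42 for interferon-gamma signalling, the fuel lists lie near 0, and the valve and cartilage-like markers lie above 0 with a median of 3.19.

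Matrix and remodelling genes had mostly positive values. Of 40 extracellular matrix genes, 34 had an interaction above 0, against 48.8% of all genes, with a median of 0.26. By edgeR 3 of the 40 had a positive value with an unadjusted p under 0.05, against 1.93% of all genes, and 0 passed the adjusted threshold. Postn, a matricellular protein of activated fibroblasts and also of valves, averaged 103 ± 23.6 CPM in HFHS ertugliflozin, 87.1 ± 31.5 in HFHS untreated, 62.7 ± 22.4 in CD ertugliflozin and 116 ± 47.0 in CD untreated libraries. Its interaction was 1.12, with an interval of 0.04 to 2.2 and an edgeR adjusted p of 1.00. Col1a1, a fibrillar collagen chain, had 0.61 ± 0.30 (SE). The stress marker Myh7 had 0.89, with -0.58 to 2.37, Nppa had 0.57, with -0.79 to 1.93, and Nppb had 0.09, with -1.42 to 1.6. Levels of these 5 genes varied within groups, as in Nppa, at 77.8 to 358 CPM in CD untreated libraries.

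All 12 valve and cartilage-like markers had positive interactions with an unadjusted p under 0.05 by edgeR, against 1.93% of all genes, with a median of 3.19 and 0 past the adjusted threshold. Their score averaged -0.01 ± 0.93 in HFHS ertugliflozin, -0.92 ± 0.71 in HFHS untreated, -0.50 ± 1.23 in CD ertugliflozin and 1.43 ± 1.00 in CD untreated libraries (SD, n = 4 each). Hapln1, a link protein of valve and cartilage matrix, had 0, 0.225, 0.843 and 0.528 CPM in HFHS ertugliflozin, 0.132, 0.107, 0 and 0.363 in HFHS untreated, 0.0522, 0.325, 0.214 and 0 in CD ertugliflozin and 0.825, 1.64, 1.51 and 0.726 in CD untreated libraries. The 12 atrial markers had a median of 0.91, with 11 above 0, and the 13 conduction system and neural markers had a median of 0.70, with 11 above 0. With the valve and atrial scores as covariates the interaction was -0.09 for Postn, -0.01 for Col1a1, -0.28 for Myh7 and 0.60 for Nppa. Nppa is itself among the atrial markers that make up that score, so its value in this fit is adjusted partly for itself. Without CD untreated replicates 2 and 3 it was 0.56 for Postn, 0.21 for Col1a1, 0.36 for Myh7 and 0.82 for Nppa. The sign of Postn, Col1a1 and Myh7 thus changed with the marker scores in the fit, and none of these values passed the test.

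Beside the interferon-related genes, markers of macrophages, endothelium, red cells, B cells, neutrophils and mesothelium had mostly negative values. Of all genes tested, 51.2% had an interaction below 0. Other cell type lists did not share this sign. Fibroblast markers had 14 of 19 above 0, with a median of 0.20, and smooth muscle and pericyte markers 9 of 13, with 0.05. Among T and NK cell, adipocyte and skeletal muscle markers, 3 of 5, 4 of 7 and 3 of 5 were above 0. Ventricular cardiomyocyte markers had 8 of 12 below 0, with a median of -0.03. Of 20 macrophage markers, 18 were below 0, with a median of -0.18. C1qa, a complement subunit made by macrophages, averaged 38.4 ± 2.46 CPM in HFHS ertugliflozin, 47.0 ± 2.86 in HFHS untreated, 50.2 ± 9.66 in CD ertugliflozin and 45.9 ± 7.32 in CD untreated libraries. The macrophage score averaged -0.15 ± 0.10, 0.00 ± 0.09, 0.08 ± 0.23 and 0.06 ± 0.18 in the same groups, so the 2 CD groups were close in this score. Of 20 endothelial markers, 19 were below 0, with a median of -0.15, and of 9 erythroid markers, 8 were below 0, with a median of -0.53. The erythroid median was larger in size than that of the interferon-gamma signalling list, -0.42. Of 11 B and plasma cell markers, 9 were below 0, with a median of -0.08, and of 4 neutrophil markers tested, 3 were below 0, with a median of -0.35. Of 6 mesothelial and epicardial markers tested, 5 were below 0, with a median of -0.27. By edgeR 2 macrophage, 2 endothelial, 3 erythroid, 3 B cell, 1 neutrophil and 1 mesothelial marker had a negative value with an unadjusted p under 0.05. Of all genes, 2.34% did, and 0 of these markers passed the adjusted threshold. The part of these cells in the interferon-related values was not tested.

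The calls depended on which libraries were used and on the tool. With valve and atrial scores as covariates the interactions of Iigp1, Tgtp2 and Igtp were -1.47, -1.50 and -1.34, with an edgeR adjusted p of 0.0769 each, and 0 genes passed. Without CD untreated replicates 2 and 3 they were -1.29, -1.58 and -1.11, with adjusted p-values of 0.158, 0.0610 and 0.158, and 0 genes passed. Without HFHS untreated replicate 3, the library at the level of the treated HFHS group, 18 genes passed and all 18 were lower. Leaving out any single one of HFHS untreated replicates 1, 2 and 4, HFHS ertugliflozin replicates 2, 3 and 4 or CD untreated replicates 1, 2 and 4 left 0 genes past the threshold, and without CD ertugliflozin replicate 4 it was passed by 7. DESeq2 called 19 genes, 18 of them lower. The lower ones included Tap1, Gbp3, Irgm2, Gbp5, Cd274, Stat2 and Nlrc5, and the higher one was Cacna2d2, a calcium channel subunit from the list of conduction markers.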

How the data were processed

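Left ventricular poly(A) RNA was sequenced in strand-marked libraries. The authors deposited raw read counts per gene for 53764 Ensembl IDs. The submitters' processing notes name STAR 2.6.0c, Subread 1.6.2 with featureCounts, FastQC 0.11.7, DESeq2 1.22.1 and mm10. Annotation, strand setting and treatment of multiply mapped reads: not given in the sources used here. A second table deposited by the authors holds regularized log2 values, which served only as an alternative input. GENCODE M21 (GRCm38) gave coordinates, and symbols for 53583 IDs.

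The fit used edgeR 4.0.16 in R 4.3.3, with 16 libraries and 4 group means (filterByExpr, TMM, robust quasi-likelihood, Benjamini-Hochberg over 15841 genes, threshold 0.05). Alternatives used limma 3.58.1 and DESeq2 1.42.0. SE is the absolute log2 fold change over the square root of F. List scores used a prior count of 2. Replicates of a group were not duplicates (chi-square over degrees of freedom 3.19 to 15.8 for their pairs). In simulated counts of 15707 genes, interactions of 2-fold were recovered in 85.1%, of 1.5-fold in 34.3% and of 1.25-fold in 0%, and 8 unchanged genes were called. The simulation changed 200 genes, all with a mean of at least 1 CPM, in the HFHS ertugliflozin libraries only. The 8 unchanged genes were called beside 57 changed genes at 2-fold and 23 at 1.5-fold. With more genes called, the Benjamini-Hochberg cutoff on the unadjusted p is less strict than with the 3 called in these libraries. The simulation also drew counts from the trended dispersion, without the spread of single genes around it. For both reasons recovery in these libraries may be lower.

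Genes named are the 30 of smallest p with a symbol and a mean of at least 1 CPM in a group, up to 4 members of smallest p per list with 5 or more tested, and a preset of genes from the study's questions. Model names and the 15 tested genes without a symbol were passed over. Interferon genes, T cell transcripts and overlapping neighbours are named outside that rule, and a few genes it takes are not reported here. The members, lists and alternatives were chosen with earlier results of these data known.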

Additional observations from a re-analysis of the deposited data

Results flagged for a closer look

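The drug effect on HFHS differed from that on CD by the interaction test in 3 genes, with values of -1.29 for Iigp1, -1.38 for Tgtp2 and -1.13 for Igtp (log2, edgeR adjusted p = 0.0219 each). Among the 30 named genes of smallest p, 7 of 120 sets of 4 libraries held a library far from the other 3, and chance gives about 1 in 20. In Gbp3, CD ertugliflozin replicate 4 had 27.3 CPM, against 32.4 to 33.2 in its group. In Gbp5, HFHS ertugliflozin replicate 4 had 10.6 CPM, against 12.9 to 13.3. In Stat2, HFHS ertugliflozin replicate 1 had 25.4 CPM, against 21.6 to 22.2. HFHS ertugliflozin replicate 2 stood apart for Robo1 at 5.68 CPM, against 4.28 to 4.40, and for Vasn at 10.3 CPM, against 12.2 to 12.6. HFHS untreated replicate 2 had 66.3 CPM of Wars, against 62.3 to 62.8, and HFHS untreated replicate 3 had 0.702 CPM of Zbp1, against 2.36 to 2.67.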

How the results depend on the processing

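The interaction count stayed at 3 under RLE and upper-quartile scaling, a filter of 1 CPM in 4 libraries, limma-voom with sample weights and limma on the deposited log2 values. It was 6 with no filter (2 of them shared), 19 with DESeq2, and 0 both with valve and atrial scores as covariates (783 at an unadjusted p under 0.05) and without CD untreated replicates 2 and 3 together (700). For the drug on CD, where 3 were called, it was 10 with DESeq2, 0 with the covariates, 0 without both those libraries and 1 in a fit of the 8 CD libraries alone. Leaving out each library gave 0 to 18 for the interaction, 0 to 1 for the drug on HFHS and 0 to 6 for the drug on CD. The CD count was 0 without CD untreated replicate 1, 2 or 4 or CD ertugliflozin replicate 2. A fit with fewer libraries has less power by construction, and the interaction count moved in both directions when single libraries were left out. The cause of these changes was not tested.

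Across 26 alternatives the interaction was -1.47 to -0.82 for Iigp1, -1.58 to -0.61 for Tgtp2 and -1.34 to -0.63 for Igtp, and they were called in 14, 14 and 13 of them. The smallest sizes came from the deposited log2 values, which are regularized, and the part of that regularization in the smaller sizes was not tested. None of the 30 named genes of smallest p changed sign, but choice by p in these same libraries favours a stable sign. Of all 180 named genes, 27 changed sign with the covariates. With the replicate number as a block the interaction count was 2, and Igtp had an adjusted p of 0.113. The labels do not say that the numbers pair the samples. Over 24 same-numbered pairs the correlation of deviations was -0.24 to 0.313, with 6 pairs over 0.1. Of the 16 libraries, 7 correlated best with a library of their own number. No chance level was set for these values, so they do not decide whether the samples are paired. At this depth and with 4 animals a group, interactions under 1.5-fold were mostly out of reach of a single-gene test. Some larger values did not pass either, as Gbp3, Gvin1, Nlrc5 and Tgtp1 had interactions of more than 2-fold.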
